A study of Microcebus murinus with 18 samples.

Results

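Glycolysis and the entry of pyruvate into the mitochondrion were followed here through 38 genes, from the glucose transporters to the pyruvate dehydrogenase kinases, in the temporal cortex of the grey mouse lemur, Microcebus murinus, a small primate. The AFFX control probe sets were left out. The members are all other features of the human HG-U133 Plus 2.0 array that the array's annotation gives to 1 of these genes. These features are probe sets, each a set of short probes read as 1 signal. There were 88 of them among 54613 on the array, for 37 of the 38 genes; SLC16A1 had none. Of these 88, 86 carried 1 gene symbol and 2 were shared by SLC2A3 and SLC2A14.

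The 18 animals fell into 3 groups, with 1 array each: 6 young adult lemurs, of which 4 were female, 10 healthy old lemurs, of which 7 were female, and 2 old females called AD-like. The methods describe the AD-like females as animals with β-amyloid plaques in the brain, and all animals as born in 1 breeding colony. The labels give age as a category only and name no treatment. The comparisons were old against young adult for ageing and AD-like against old for the pathology. The second also differs in sex, with no male among the AD-like animals, and in age, as the study gives them a higher mean age. The study also reports cortical atrophy in the AD-like animals.

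Glycolysis splits glucose into pyruvate in the cytosol, with a small yield of ATP, and neurons and astrocytes both depend on it. Pyruvate is either reduced to lactate, which brain cells exchange through monocarboxylate transporters, or carried into the mitochondrion, where the pyruvate dehydrogenase complex turns it into acetyl-CoA for the citric acid cycle. Many steps have several isoforms with a tissue bias, such as the neuronal enolase ENO2 and the muscle enolase ENO3, or the aldolases ALDOC of brain and ALDOA of muscle.

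Values are linear signals, scaled by the authors so that the trimmed mean of each array is near 100. Lemur RNA was hybridised to human probes, so the signal of a probe set also depends on how well the probes match, and a probe set was compared only with itself between animals. The arrays differed in a way that the groups do not explain. The poly-A control RNA that is added before labelling was missing from 4 arrays (AD-like F2, young adult M2, and both M1 and M2 of the old group), where the mean signal of its probe sets was 12.5 to 41.2, against 188 to 2334 on the other 14. The signal for 18S ribosomal RNA was 56.5 and 104 on young adult M2 and AD-like F2 and at least 3028 elsewhere. With the group in the model, 6.95% of the 14567 probe sets tested were higher and 8.78% lower on those 4 arrays at an adjusted p under 0.05. Among 40 tested members 2 were higher (PKM and MPC1) and 4 lower (1 of GAPDH, 2 of PGK1, 1 of PDHA1). Since 3 of the 4 animals are males, the missing control and sex are partly confounded. Values without these arrays are given beside the main results that moved with them. There F1 is the 1 AD-like animal, so AD-like differences without these arrays rest on it alone. In bulk tissue fewer cells of a type and less RNA per cell cannot be told apart.

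**Figure D1:**
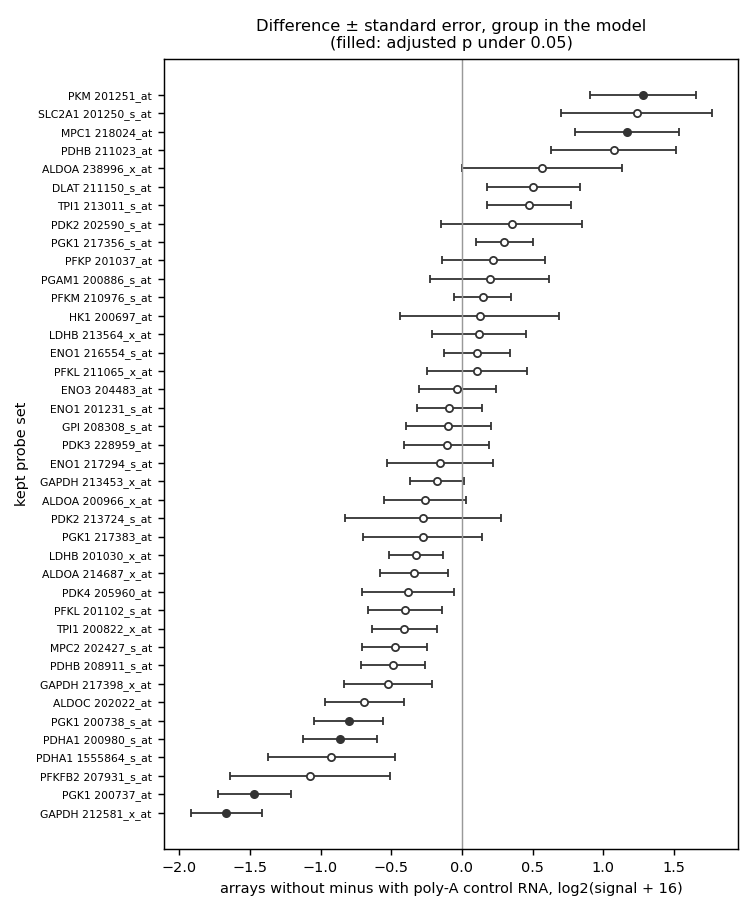
Difference between the 4 arrays without and the 14 arrays with poly-A control RNA for the 40 tested member probe sets, on the log2(signal + 16) scale, with the group in the model; bars are standard errors and filled points have an adjusted p under 0.05. GAPDH 212581_x_at lies lowest at -1.67 and PKM highest at 1.28.

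Tests ran on log2(signal + 16) over the 14567 probe sets whose signal reached 150 on 3 or more arrays, in 1 limma model of the 3 groups. This filter passed 40 of the 86 single-symbol members, which stand for 25 genes. None of HK2, SLC2A3, PFKFB3, PFKFB4, PGAM2, BPGM, ENO2, LDHA, SLC16A7, DLD, PDHX and PDK1 had such a probe set, and their signals are described without the filter. Each gene is represented by its brightest tested probe set unless another is named.

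Between old and young adult animals, no member passed an adjusted p under 0.05, and neither did any other probe set (0% of 14567); the smallest adjusted p of a member in limma was 0.836. At an unadjusted p under 0.05, 3 of 40 members were higher in old animals, against 3.49% of all probe sets tested, and 1 was lower, against 2.42%. The 3 were PGAM1, PFKP and TPI1, and the lower one was the dimmer probe set of PFKL. In all, 27 of the 40 had a higher mean in old animals, with a median log2 difference of 0.15, against 53.9% of all probe sets and a median of 0.03.

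Between AD-like and old animals, again no member passed the adjusted threshold, and 1 probe set of all did (0.00686%). The smallest adjusted p of a member was 0.182, for ENO3. At an unadjusted p under 0.05, 0 members were higher (all probe sets 1.22%) and 4 lower (all probe sets 3.62%): ENO3, PKM, TPI1 and the dimmest tested probe set of ENO1. ENO3 was kept by the filter through old arrays alone, so this count is a description only. The median log2 difference of the 40 was -0.16 and 28 of them were lower, against a median of -0.02 and 51.9% lower over all probe sets. That lean rested on AD-like F2, an array without poly-A control RNA. Without it the median was 0.01 and 20 of 40 were higher, and without AD-like F1 it was -0.30.

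Against young adult animals, which are also the reference of the first comparison, the AD-like animals had 0 members higher (all probe sets 1.13%) and 2 lower (all probe sets 3.21%) at an unadjusted p under 0.05, ENO3 and the same ENO1 probe set, and 0 after adjustment (0%), with a smallest adjusted p of 0.451. Members were evenly split, with 20 higher and 20 lower and a median of -0.02. Across the 3 groups the F test gave 5 members at an unadjusted p under 0.05 (TPI1, PGAM1, ENO1 217294_s_at, ENO3 and PKM), against 5.07% of all probe sets, and 0 after adjustment. A p above the threshold does not show that the groups were alike: only 2 animals were AD-like, and their spread was taken to be that of the other groups.

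**Figure D2:**
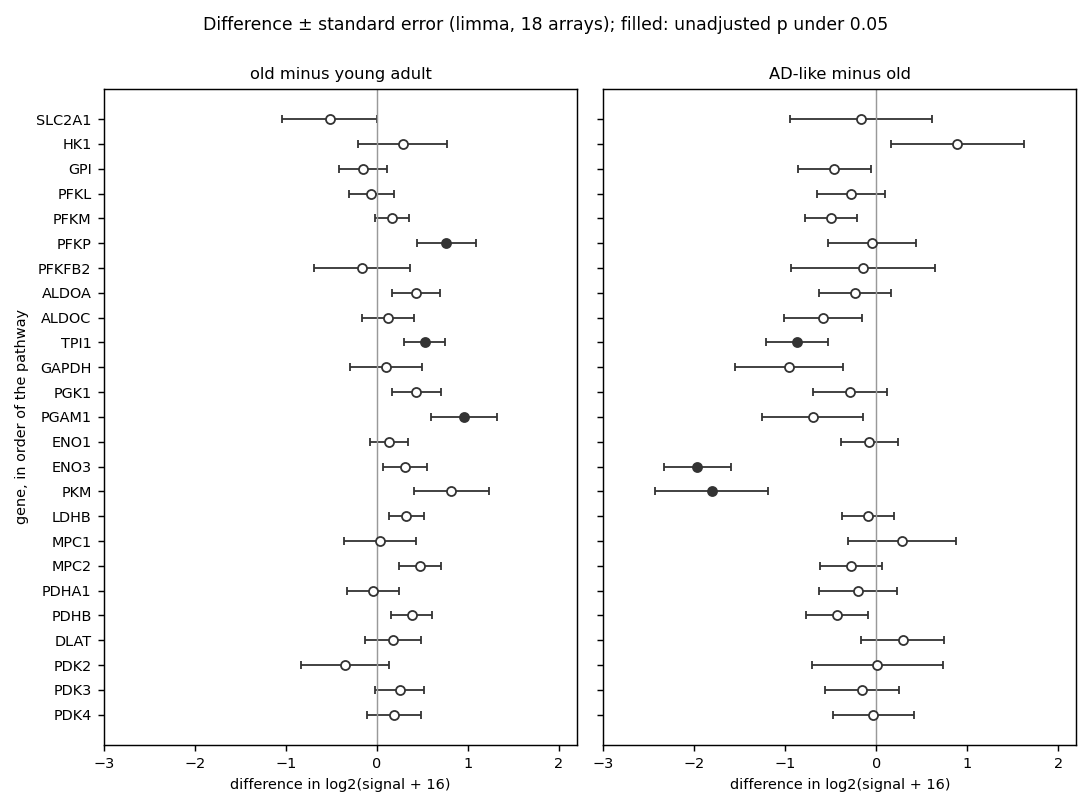
Log2 differences between groups with standard errors (limma, all 18 arrays) for the 25 genes with a tested probe set, ordered from glucose uptake to the pyruvate dehydrogenase kinases; filled points have an unadjusted p under 0.05 and none has an adjusted p under 0.05. PGAM1, PKM and PFKP stand highest in old against young adult animals, and ENO3 and PKM lowest in AD-like against old animals.

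Glucose enters the brain mainly through SLC2A1 (GLUT1), the transporter of the blood-brain barrier and glia, and enters neurons through SLC2A3 (GLUT3). SLC2A1 ranged from 74.5 to 222 in young adult animals (median 160.2) and from 8.38 to 308 in old animals (median 144), and was 61.5 and 120 in AD-like F1 and F2. The old animals spread far more than the young adult animals, with 3 of 10 below every young adult value and 3 above. The log2 difference of -0.52 (SE 0.52) between old and young adult animals was within that spread. The other SLC2A1 probe set, 201249_at, did not pass the filter, reaching 115 at most, and ran the other way. It read 115 and 63.7 in AD-like F1 and F2, above all 6 young adult and 6 of 10 old animals. In the limma fit without a filter, old minus young adult was 0.31 (SE 0.34) and AD-like minus old 1.03 (SE 0.51, adjusted p = 0.875). The brightest probe set of SLC2A3 alone reached 92.2 at most and lay below the array's own median signal on 15 of 18 arrays. Both probe sets shared with SLC2A14 passed the filter and differed by -0.42 (SE 0.30) and 0.20 (SE 0.29) between old and young adult animals.

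Hexokinase traps glucose as glucose 6-phosphate, with HK1 as the brain form and HK2 as the form of muscle. HK1 ranged from 29.1 to 303 in young adult animals (median 137) and from 28.9 to 420.1 in old animals (median 166). AD-like F1 had the highest HK1 signal of all 18 animals, at 587, while AD-like F2 had 169. The AD-like minus old difference of 0.89 (SE 0.73, adjusted p = 0.972 in limma) was 1.74 without F2 and 0.04 without F1. Between old and young adult animals HK1 differed by 1.09 in females and -1.41 in males, but the interaction did not pass adjustment (adjusted p = 0.968 in limma). HK2 reached 155 at most.

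Glucose-6-phosphate isomerase, GPI, differed little, by -0.15 (SE 0.27) between old and young adult animals, and AD-like F1 and F2 lay on opposite sides, at 407 and 108. AD-like minus old was -0.46 (SE 0.40), and 0.44 on arrays with poly-A control RNA, where F1 is the 1 AD-like animal.

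Phosphofructokinase is the committed step, and its muscle (PFKM), liver (PFKL) and platelet (PFKP) subunits assemble into mixed tetramers in brain. For PFKP the young adult animals ran from 13.7 to 219.9 with a median of 136, and the old animals from 147 to 251 with a median of 199, and AD-like F1 and F2 had 199 and 186. All 10 old animals exceeded the young adult median, but only 3 exceeded the highest young adult animal. The difference was 0.76 on the log2 scale (SE 0.32, adjusted p = 0.836 in limma). Without young adult F4, the animal at 13.7, it was 0.34. Its value was 0.96 within the arrays with poly-A control RNA.

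PFKM was 556 to 761 in young adult animals (median 717) and 586 to 973 in old animals (median 783). AD-like F1 had 392, below all 16 animals of the other groups, and AD-like F2 had 770.0, within the old range and above all 6 young adult animals. AD-like minus old was -0.50 (SE 0.28, adjusted p = 0.972), -0.97 without F2 and -0.02 without F1. For PFKL the probe sets disagreed. The brighter one differed by -0.06 (SE 0.25) between old and young adult animals, while the dimmer one was at 42.2 to 224 in young adult (median 152) and 30.5 to 176 in old animals (median 82.6), a difference of -0.74 (SE 0.31, adjusted p = 0.836 in limma). In females alone the latter was -1.26 (adjusted p = 0.963). AD-like F1 and F2 had 159 and 124 there.

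The bifunctional enzymes PFKFB2, PFKFB3 and PFKFB4 set fructose 2,6-bisphosphate, the activator of phosphofructokinase. PFKFB2 swung from 14.3 to 297 in young adult animals alone and differed by -0.16 (SE 0.53) in old animals. PFKFB3, PFKFB4 and the other probe sets of PFKFB2 did not pass the filter. The brightest PFKFB4 probe set read 13.0 and 9.26 in AD-like F1 and F2, below all 6 young adult and 9 of 10 old animals, but below the array median on 10 of 18 arrays.

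Aldolase cleaves the hexose, with ALDOC as the brain and astrocyte form and ALDOA as the muscle form. ALDOC had 2111 ± 713 (SD, n = 6) in young adult and 2323 ± 810.3 (SD, n = 10) in old animals, which differed by 0.12 on the log2 scale (SE 0.28). AD-like F1 had 2384 and F2 889.5, the lowest of all animals. ALDOA had 689.5 ± 239 and 902.5 ± 196, a difference of 0.43 (SE 0.26, adjusted p = 0.856), and 1244 and 449 in AD-like F1 and F2, the former above all other animals and the latter above 1 of them. Old minus young adult for ALDOA was 0.04 in females and 1.24 in males (interaction adjusted p = 0.968 in limma). On arrays with poly-A control RNA, AD-like minus old went from -0.23 to 0.53 for ALDOA and from -0.59 to 0.02 for ALDOC. Of the other ALDOA probe sets, 214687_x_at followed it, at 0.37, and the dim 238996_x_at did not, at -0.30 (SE 0.50).

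Triosephosphate isomerase, TPI1, which brings both products of aldolase into the lower pathway, differed at an unadjusted p under 0.05 in both comparisons. Its signal was 425 to 916 in young adult animals (median 787.5) and 666 to 1373 in old animals (median 969), with 5 of 10 old animals above every young adult animal. AD-like F1 and F2 had 624 and 452, below all 10 old animals. The differences were 0.53 (SE 0.22, adjusted p = 0.836) for old against young adult and -0.87 (SE 0.34, adjusted p = 0.939) for AD-like against old animals in limma. They were 0.48 and -0.70 within the arrays with poly-A control RNA, the latter from 1 AD-like animal, and 0.32 in females alone for the first. The second tested TPI1 probe set showed neither, at 0.04 (SE 0.28) and 0.10 (SE 0.42).

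GAPDH oxidises glyceraldehyde 3-phosphate and is widely used as a reference gene. Its representative ran from 6813 to 20971 in young adult animals (median 16462), from 5371 to 31807 in old animals (median 16399), and was 15120 and 4219 in AD-like F1 and F2. The 4 arrays without poly-A control RNA held the 4 lowest values, at 6813 or less, and all 14 others lay at 12543 or more. Between these array sets the difference was -1.67 (SE 0.25, adjusted p = 0.000953 in limma), larger than its differences between groups over all 18 arrays. The AD-like minus old difference of -0.96 (SE 0.59, adjusted p = 0.972) was -0.04 without AD-like F2 and -1.88 without F1, and came to -0.40 on arrays that had the poly-A control RNA. The old minus young adult difference of 0.10 (SE 0.40) turned to -0.21 under quantile normalisation, to -0.12 without young adult M2 and to -0.01 without old F2. The probe set 217398_x_at was 3379 to 8633 in young adult animals (median 4960), 3874 to 15258 in old animals (median 6447), and 4420 and 2859 in AD-like F1 and F2. There 8 of 10 old animals exceeded both AD-like animals, and AD-like minus old was -0.86 (SE 0.44, adjusted p = 0.972). For 213453_x_at it was 0.05 (SE 0.27).

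Phosphoglycerate kinase, PGK1, makes the first ATP of the pathway. Its representative was 1232 to 3643 in young adult animals (median 2416), 1934 to 3756 in old animals (median 3264), and 3513 and 1694 in AD-like F1 and F2. Arrays without poly-A control RNA differed from the others by -0.80 (SE 0.24, adjusted p = 0.0321), and by -1.47 (SE 0.26, adjusted p = 0.00246) for probe set 200737_at, whose 4 lowest values were those 4 arrays. Young adult M1, an array with the control RNA, was low as well, at 1369. Old minus young adult came to 0.43 (SE 0.27, adjusted p = 0.856) and 0.39 within the arrays with the control RNA, and AD-like minus old to -0.29 (SE 0.40) and 0.11. The probe sets 217356_s_at and 217383_at pointed the other way between old and young adult animals, at -0.20 (SE 0.20) and -0.51 (SE 0.37).

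**Figure D3:**
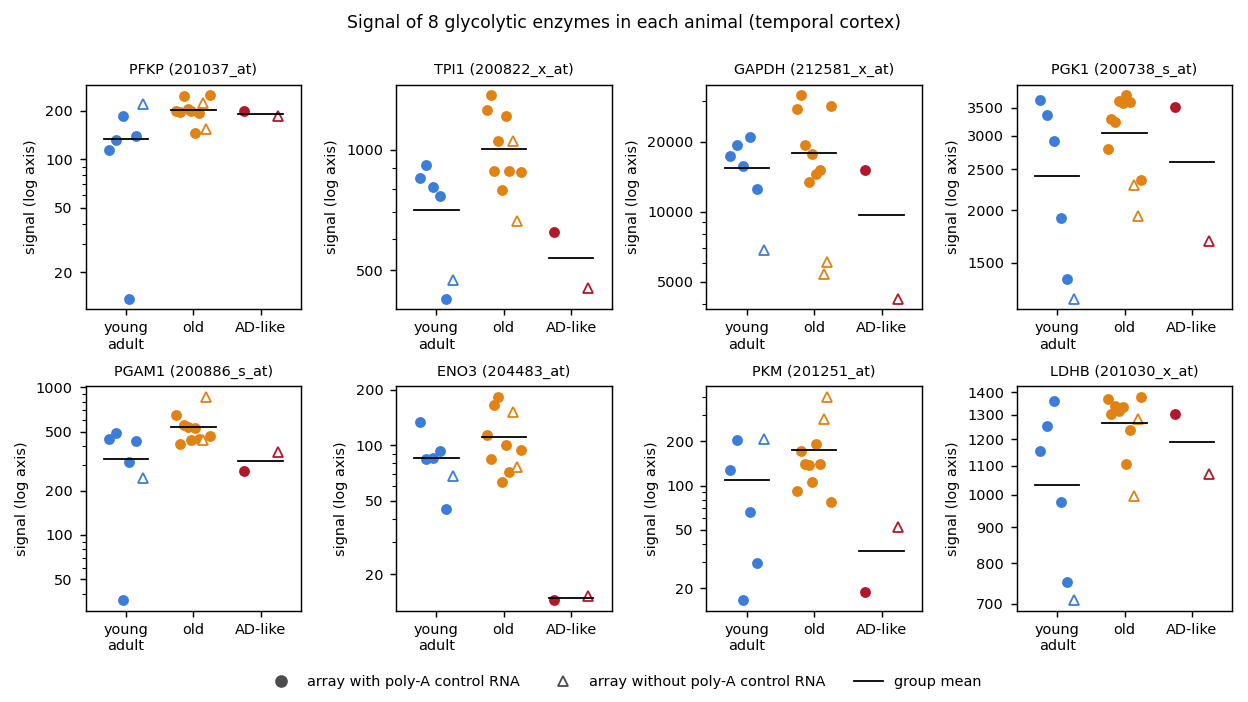
Signal per animal, on a log axis, of 8 enzymes in the 3 groups; filled circles are arrays with and open triangles arrays without poly-A control RNA, and lines are group means. For GAPDH the 4 open triangles are the 4 lowest points, and for ENO3 both AD-like animals, at 14.4 and 15.3, lie below all others.

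Phosphoglycerate mutase moves the phosphate group before enolase, as PGAM1 in brain and PGAM2 in muscle. PGAM1 had the smallest p of all members between old and young adult animals. Its signal was 36.0 to 491 in young adult animals (median 372), 413 to 865 in old animals (median 501), and 272 and 366 in AD-like F1 and F2. All 10 old animals lay above the young adult median and above both AD-like animals. The old minus young adult difference was 0.96 (SE 0.37, adjusted p = 0.836 in limma) and was 0.47 without young adult F3, the animal at 36.0. It was 0.87 within the arrays with poly-A control RNA. AD-like minus old was -0.70 (SE 0.55, adjusted p = 0.972). PGAM2 was below the array median on 17 of 18 arrays, old M3 at 112 being the exception, and the brightest probe set of BPGM, the red cell form, reached 95.4 at most.

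Enolase forms phosphoenolpyruvate, and its 3 genes mark cell types: ENO1 is widespread, ENO2 neuronal and ENO3 muscular. ENO3 had the smallest p of all members between AD-like and old animals. Its signal was 45.5 to 134 in young adult animals (median 84.9), 63.5 to 184 in old animals (median 97.3), and 14.4 and 15.3 in AD-like F1 and F2. Both AD-like animals lay below all 16 other animals. The AD-like minus old difference was -1.97 on the log2(signal + 16) scale (SE 0.37, adjusted p = 0.182 in limma), and the AD-like minus young adult difference -1.66 (SE 0.39, adjusted p = 0.451). With 1 in place of 16 added to the signal, the former was -2.73 with an adjusted p of 0.0169, and with sex in the model it was -2.05 with an adjusted p of 0.0437. It was between -2.03 and -1.89 whichever animal was left out. Within the arrays with poly-A control RNA, where F1 is the 1 AD-like animal, it was -1.97. The AD-like signals lie under the medians of their own arrays, 44.3 and 53.0, and the size given moves with the constant that is added. No young adult or AD-like signal reached 150, so the gene passed the filter through 3 old animals alone. Its adjusted p values for AD-like minus old are therefore a description only. Old minus young adult was 0.31 (SE 0.25). The other ENO3 probe set reached 88.2 at most and did not pass the filter.

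Both AD-like animals lay below every old animal for 5 of 40 members (TPI1, PGAM1, ENO1 217294_s_at, ENO3 and PKM), against 1.63% of all probe sets tested, and above every old animal for 0, against 1.39%. For ENO3 and ENO1 217294_s_at they also lay below every young adult animal, as for 0.638% of all probe sets. Between old and young adult animals 0 members were free of overlap, with 0.0206% of all probe sets higher and 0.0137% lower in every old animal. The first count is a description only: of the 5, ENO3 passed the filter through 3 old arrays alone, and neither ENO1 217294_s_at nor PKM had an AD-like array at 150.

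The representative of ENO1 had 400.1 ± 69.2 (SD, n = 6) in young adult and 446 ± 97.2 (SD, n = 10) in old animals, and 503 and 336 in AD-like F1 and F2. A second probe set, 216554_s_at, differed by -0.01 (SE 0.21) and -0.13 (SE 0.32) for old minus young adult and AD-like minus old. Another, 217294_s_at, was 38.2 to 179 in young adult animals (median 91.8) and 37.4 to 226 in old animals (median 78.9), and read 29.8 and 16.9 in AD-like F1 and F2, with -1.33 for AD-like minus old (SE 0.49, adjusted p = 0.902). ENO2 did not pass the filter. It exceeded its young adult median in 9 of the old animals, with 36.6 to 93.6 in young adult and 26.3 to 137 in old animals, and had 50.02 and 7.96 in AD-like F1 and F2. In the fit without a filter AD-like minus old was -1.30 for ENO2 (SE 0.45, adjusted p = 0.709).

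Pyruvate kinase makes the second ATP, and PKM is its form in brain and muscle. Its signal was 16.5 to 207 in young adult animals (median 96.9), 77.4 to 403 in old animals (median 140.5), and 18.95 and 52.5 in AD-like F1 and F2. All 10 old animals exceeded both AD-like animals, and 4 of 6 young adult animals did. AD-like minus old was -1.81 (SE 0.62, adjusted p = 0.812 in limma), -2.30 without F2 and -1.33 without F1. The 2 highest animals, old M1 and M2 at 282 and 403, were arrays without poly-A control RNA, on which PKM was higher by 1.28 (SE 0.37, adjusted p = 0.0270). Within the other arrays AD-like minus old was -2.04 (adjusted p = 0.741), from 1 AD-like animal. Old minus young adult was 0.82 (SE 0.41, adjusted p = 0.836). The second PKM probe set, 213700_s_at, did not pass the filter, reaching 110.3 at most, and ran the other way. It read 70.3 and 106 in AD-like F1 and F2, above 9 of 10 old animals, with 1.10 for AD-like minus old in the fit without a filter (SE 0.57, adjusted p = 0.885).

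Lactate dehydrogenase joins pyruvate and lactate, LDHA in the form of muscle and LDHB in that of heart and neurons. LDHB had 708 to 1362 in young adult animals (median 1066), 996 to 1380 in old animals (median 1310.3), and 1305 and 1071 in AD-like F1 and F2. The old animals were tightly grouped, with 9 of them above the middle of the young adult group, and the difference was 0.32 (SE 0.19, adjusted p = 0.854), or 0.26 within the arrays with poly-A control RNA. The other LDHB probe set gave 0.44 (SE 0.29). LDHA did not pass the filter, at 8.46 to 127 in young adult and 11.8 to 141 in old animals, but AD-like F2 had the highest value of all animals, 275, and AD-like F1 had 77.8.

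SLC16A7 (MCT2), which takes lactate into neurons, did not exceed 132 for its brightest probe set. Of the mitochondrial pyruvate carrier, MPC2 was 212 to 637 in young adult animals (median 323) and 308 to 605 in old animals (median 480.1), 436 and 335 in AD-like F1 and F2, and differed by 0.47 between old and young adult animals (SE 0.23, adjusted p = 0.836). Its partner MPC1 had 150.5 ± 85.2 (SD, n = 6) and 148 ± 83.9 (SD, n = 10), and 88.5 and 287 in AD-like F1 and F2. On arrays without poly-A control RNA, that of AD-like F2 among them, MPC1 was 1.17 higher (SE 0.37, adjusted p = 0.0375). For MPC1, AD-like minus old was 0.28 (SE 0.59), and -0.27 without those arrays, which left old minus young adult at -0.01. The other probe sets of both genes did not pass the filter and ran lower in old animals. In the limma fit without a filter, old minus young adult was -1.05 for MPC2 227669_at (SE 0.44, adjusted p = 0.926). It was -0.76 for MPC1 240362_at (SE 0.34, adjusted p = 0.926).

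In the pyruvate dehydrogenase complex, the 5 tested probe sets had a median difference of 0.17 between old and young adult animals and -0.20 between AD-like and old animals. PDHA1, the E1 alpha subunit, had 1616 ± 587 (SD, n = 6) and 1577 ± 612 (SD, n = 10). Its 4 lowest values belonged to the 4 arrays without poly-A control RNA, which differed from the others by -0.86 (SE 0.26, adjusted p = 0.0314). On the others alone, PDHA1 went from -0.05 to -0.04 for old minus young adult and from -0.20 to -0.10 for AD-like minus old. PDHB, the E1 beta subunit, differed by 0.38 (SE 0.23, adjusted p = 0.854) between old and young adult animals and lay above both AD-like animals (363 and 421) in 9 of 10 old animals. DLAT, the E2 subunit, differed by 0.17 (SE 0.31). DLD (E3) and PDHX (the E3-binding protein) stayed below the filter, at no more than 108 and 186.

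The kinases PDK1 to PDK4 phosphorylate E1 and shut the complex down. PDK3 had 438 ± 226 (SD, n = 6) in young adult and 483 ± 131 (SD, n = 10) in old animals, and 394 and 446 in AD-like F1 and F2, with differences of 0.25 (SE 0.27) and -0.16 (SE 0.40). PDK4, the kinase of fasting, had 209.5 ± 74.3 and 249 ± 95.7, with 235 and 213 in AD-like F1 and F2. PDK2 varied most, from 37.0 to 578 among the old animals alone, and differed by -0.35 (SE 0.48) from young adult animals. PDK1 did not pass the filter. A dim PDK3 probe set, 206347_at, named after its values were seen, read 113 and 66.5 in AD-like F1 and F2 against 2.74 to 42.7 in old animals, with a difference of 1.96 (SE 0.51, adjusted p = 0.429) in the fit without a filter, while the brightest probe set gave -0.16.

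Taken animal by animal, AD-like F1 and F2 lay on opposite sides of the old mean about as often as for all probe sets. Of the 25 genes, 10 were lower in both, 1 (HK1) was higher in both and 14 lay on opposite sides, a share of 56%, against 47.9% of all probe sets tested. Over the 40 tested probe sets, 16 were lower in both, or 40%, against 25% of all probe sets. Of the same 40, 17 lay on opposite sides, or 42.5%, which is below the 47.9% of all probe sets. The median over the 25 genes was -0.01 for F1 and -0.48 for F2, and for all probe sets it was 0.05 and -0.03. ENO3, PKM and TPI1 were the 3 genes for which both animals lay more than 0.5 below the old mean; for PGAM1 they lay -0.90 and -0.50 from it.

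**Figure D4:**
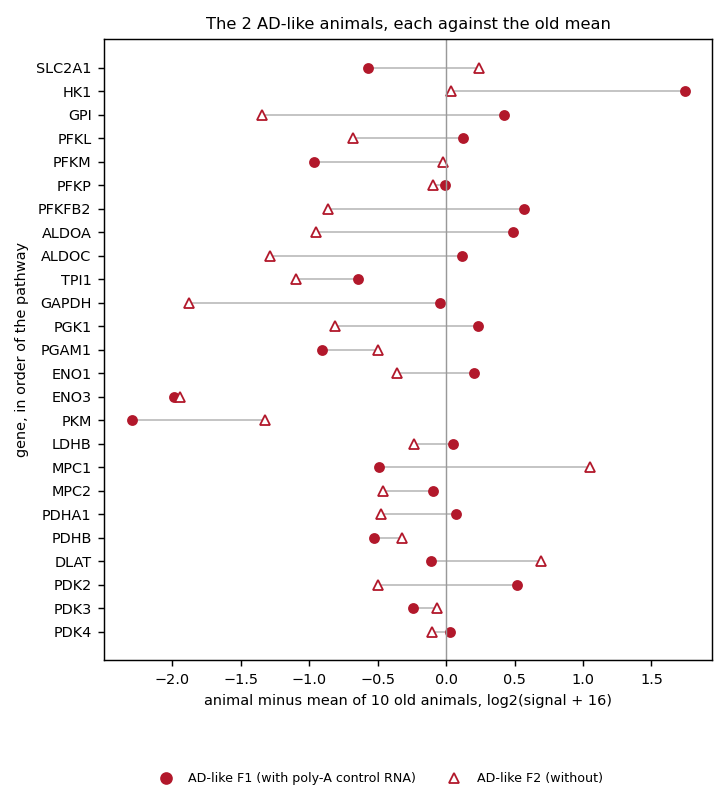
Log2 difference of each AD-like animal from the mean of the 10 old animals, for the 25 genes with a tested probe set in pathway order; circles are AD-like F1 and open triangles AD-like F2, whose array lacked poly-A control RNA. ENO3, PKM, TPI1 and PGAM1 were low in both animals, whereas GPI, ALDOA and ALDOC were low in F2 only.

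The balance of isoforms was described within each animal as the log2 difference between their probe sets, of which only the change between animals has a meaning. No test was run on it. Contrasts that hold ENO2, PGAM2, LDHA, HK2 or SLC2A3 rest on a probe set that did not pass the filter. ENO2 minus ENO1, neuronal against widespread enolase, averaged -2.57 ± 0.45 (SD, n = 6) in young adult and -2.20 ± 0.61 (SD, n = 10) in old animals, and was -2.97 and -3.88 in AD-like F1 and F2. Here 9 of 10 old animals exceeded both AD-like animals, old M2 at -3.66 being the exception. ENO3 minus ENO2, muscle against neuronal enolase, averaged 0.49 ± 0.40 and 0.30 ± 0.46, and split the AD-like animals at -1.12 and 0.38.

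PFKM minus PFKP, muscle against platelet phosphofructokinase, lay between 1.28 and 4.58 in young adult and between 1.17 and 2.47 in old animals, with 0.93 and 1.96 in AD-like F1 and F2. The old minus young adult difference of -0.59 was -0.17 without young adult F4. For PFKL minus PFKP, 10 of 10 old animals lay below the young adult median, with a difference of -0.83, or -0.40 without the same animal. PGAM2 minus PGAM1, muscle against brain mutase, lay under its young adult median in 9 of the old animals, and differed by -0.94 on average and -0.50 without young adult F3. In AD-like F1 and F2 it was -3.67 and -3.75, both above 9 of 10 old animals, or above 7 with 1 added to the signal.

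LDHA minus LDHB overlapped fully between young adult and old animals, at -3.89 ± 0.91 (SD, n = 6) and -4.08 ± 0.90 (SD, n = 10), and was -3.82 and -1.90 in AD-like F1 and F2, the latter the highest of all. ALDOC minus ALDOA, brain against muscle aldolase, went from 1.61 ± 0.70 in young adult to 1.30 ± 0.75 in old animals and 0.93 and 0.96 in the AD-like animals, with overlap throughout. The old minus young adult difference of -0.31 was -0.04 without young adult M1, the highest animal at 2.97. The contrasts HK2 minus HK1, SLC2A1 minus SLC2A3, PDK4 minus PDK2 and MPC2 minus MPC1 differed by 0.15, 0.04, 0.54 and 0.44 between the old and young adult means, each within the SD of the young adult or old animals. With 1 animal left out they ran from -0.16 (without old M3) to 0.65 (young adult F3), from -0.18 (old M2) to 0.33 (old F2), from 0.23 (old M3) to 0.67 (young adult F4) and from 0.19 (young adult M2) to 0.87 (young adult F2). For SLC16A1 minus SLC16A7 there was no value.

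**Figure D5:**
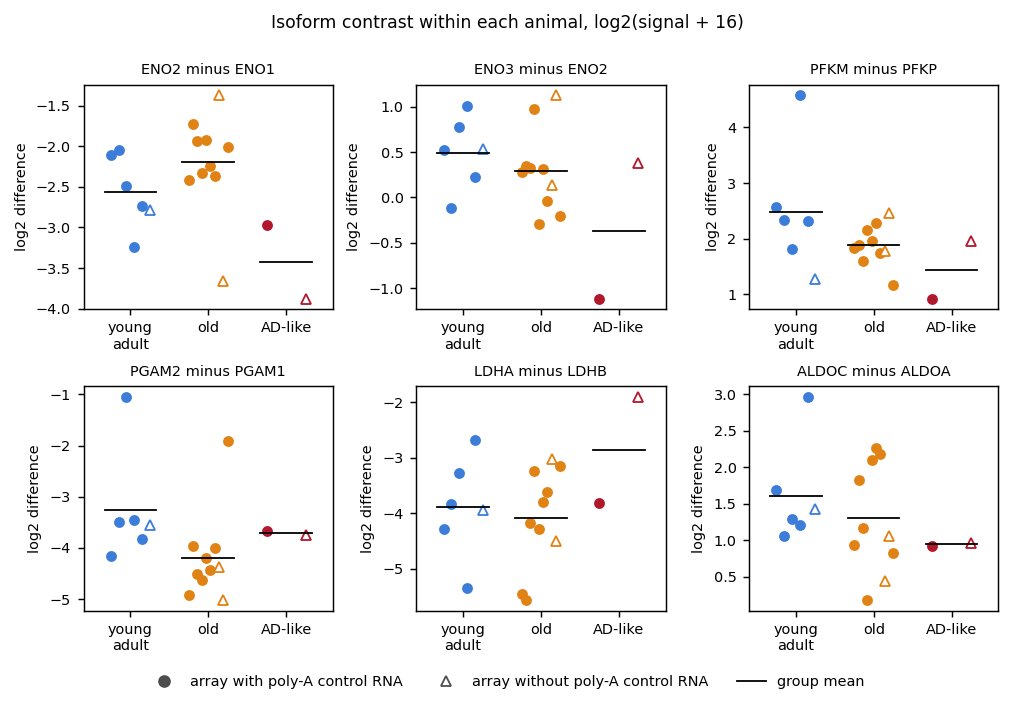
Log2 difference between the signals of 2 isoforms in each animal, in log2(signal + 16), for 6 isoform pairs; symbols as in the plot of signals by animal, lines are group means. Both AD-like animals lie under 9 of 10 old animals for ENO2 minus ENO1 and above 9 of 10 for PGAM2 minus PGAM1. The groups overlap for all 6 pairs. ENO2, PGAM2 and LDHA did not pass the filter.

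In neighbouring pathways, counts are read against all probe sets tested, of which 3.49% passed an unadjusted p of 0.05 as higher in old than young adult and 3.62% as lower in AD-like than old animals. Of 8 tested genes among other glycolytic and gluconeogenic isoforms, 0 differed between old and young adult animals at an unadjusted p under 0.05, while 2 had a lower AD-like mean at the same threshold. They were ADPGK, an ADP-dependent glucokinase (-1.16, SE 0.44, adjusted p = 0.918), and G6PC3, a glucose-6-phosphatase (-1.60, SE 0.63, adjusted p = 0.939). In AD-like F1 and F2, ADPGK read 32.9 and 71.5, and G6PC3 read 21.5 and 30.3. No AD-like array reached the filter's minimum signal for either gene, so both were kept through young adult and old arrays alone. G6PC3 also lay under the medians of both AD-like arrays, 44.3 and 53.0. The count of 2 is therefore a description only. Of 11 citric acid cycle genes, 1 was higher in old animals, SUCLG1, a subunit of succinyl-CoA ligase (0.56, SE 0.25, adjusted p = 0.836), and 0 differed between AD-like and old animals, where CS, citrate synthase, had -0.62 (SE 0.33) and IDH2 -0.71 (SE 0.35). The medians of that list were 0.24 and -0.23 in the 2 comparisons. Of 5 glycogen genes, 1 was higher in old animals, GYG1, the glycogenin primer (0.55, SE 0.24, adjusted p = 0.836).

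For the 4 genes of the pentose phosphate pathway, the 4 pyruvate dehydrogenase regulators and other transporters, and the 5 genes of the hypoxia-inducible factor pathway, 0 passed an unadjusted p under 0.05 in either comparison. PGLS, of the pentose phosphate pathway, had 0.49 (SE 0.35) between old and young adult and -0.90 (SE 0.53) between AD-like and old animals. HIF1A, the transcription factor that induces many of the member genes in low oxygen, was 0.63 higher in old animals (SE 0.36, adjusted p = 0.850). The median differences for old minus young adult and AD-like minus old were 0.14 and -0.05 for the pentose phosphate list, -0.08 and 0.25 for the regulators and transporters, and 0.41 and -0.12 for the hypoxia list. They were -0.0018 and -0.21 for the other isoforms and 0.10 and -0.01 for glycogen. No gene of these 6 lists passed an adjusted p under 0.05 in either comparison.

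Markers of the cell types of cortex were examined for the identity of the tissue. All 8 neuronal markers were tested and summed to 17147 to 63616 in young adult and 36402 to 63118 in old animals, and to 55718 and 24809 in AD-like F1 and F2. Their sum on the 4 arrays without poly-A control RNA was 24809 to 38376, against 17147 to 63616 on the others. SNAP25 weighed most in the sum, with a mean of 27258 in old animals and 8268 in AD-like F2. NEFM had 1640 in F2 against an old mean of 5590, while SYT1 had 4962 against 5602 and STMN2 4647 against 5460. AD-like F2, which was low for GAPDH and PGK1, lay below all 10 old animals in this sum. Its part in those results was not tested.

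Astrocyte markers summed to 4932 to 19167 in young adult, 6438 to 15918 in old and 9739 and 8310 in AD-like animals, with 5 of 7 tested and GFAP below the filter. Of the skeletal muscle markers, 8 of 9 had a probe set and 1, MB, was tested. Their sum was 386 to 640.2 in young adult, 299.7 to 760 in old and 603 and 451 in AD-like animals, and both AD-like values lie within the old range. Oligodendrocyte markers summed to 667 to 1279, 601 to 1260.3, 882 and 1102, and those of red blood cells to 414 to 1430.0, 514 to 965, 512 and 700.3, in the same order. Microglia markers summed to 273 to 718, 301 to 591, 579.9 and 521, and endothelial markers to 474 to 993, 518 to 858, 587 and 489.7. Of the tested markers ITGAM alone, of microglia, was at an unadjusted p under 0.05 in the comparison of old with young adult animals (0.77, SE 0.37, adjusted p = 0.836). ITGAM was the 1 microglia marker of 7 that passed the filter. In the fit without a filter AIF1, CD74, C1QA, C1QB and TYROBP had differences of -0.59, -0.35, -0.24, -0.26 and -0.06, and CSF1R had 0.43.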

How the data were processed

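RNA from the temporal cortex of 18 lemurs was hybridised to human arrays. Scans were processed by the authors with GCOS 1.2, per the submitters' processing notes, and the deposited values are linear intensity signals with a 2% trimmed mean of 100.01 to 100.02 on each array. The detection calls were left unused. Probe sets were named through the GEO platform annotation, and 62 control probe sets, 3 of them for GAPDH, were left out. Depth does not apply to arrays, whose number limits the precision.

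Signals were transformed to log2(signal + 16), which shrinks differences between dim values. Probe sets at 150 or more on at least 3 arrays were fitted with lmFit and eBayes in limma 3.58.1 (R 4.3.3), as 1 model of 3 groups on 18 arrays, with Benjamini-Hochberg adjustment over all 14567 and a threshold of 0.05. The code was tested on simulated data. Figures used Python 3.11.15 with matplotlib 3.10.9. The methods name SAM, which was not run, and ANOVA, which was run with a t-test as an alternative. Other alternatives were the added constant (1, 50), quantile normalisation, median centring, the filter (none, 300), an intensity trend, array weights, sex, females alone, the label number as a block, the beta-actin 3' to 5' ratio, the poly-A control set as a block or alone, no probe sets ending in _x_at or _s_at, and leaving out each animal. The alternative with females that had poly-A control RNA was chosen after seeing the data.

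Members and lists were chosen with earlier results of these data known. Every member gene is accounted for by its step, and represented by the brightest tested probe set that carries its symbol alone (the brightest where none was tested). Values by animal are given for the members with the 6 smallest p in old minus young adult and in AD-like minus old, for TPI1, GAPDH and ENO3, which the study lists from these same samples, and for the isoform pairs. From other lists, the genes with the 2 smallest p were eligible.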

Additional observations from a re-analysis of the deposited data

Results flagged for a closer look

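Among the 25 representative genes, each examined in young adult and in old animals (50 groups), 3 had an animal set apart from its group by more than the 95% critical gap of Dixon's test, and chance alone sets apart about 1 group in 20. All 3 were young adult animals at the low end. PFKM was 555.7 in young adult M2, an array without poly-A control RNA, with the next animal at 689.0. PFKP was 13.7 in young adult F4, with the next at 113.7. PGAM1 was 36.0 in young adult F3, with the next at 242.3. Without these animals, old minus young adult was 0.34 for PFKP and 0.47 for PGAM1. The interaction of age and sex passed adjustment for 0 of the 25 genes in limma, where its smallest adjusted p was 0.968, with HK1 and ALDOA at an unadjusted p under 0.05.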

How the results depend on the processing

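Counts of members at an unadjusted p under 0.05 are given with the share of all features at that p under the same setting; 40 members were tested, 86 without a filter, 27 at a signal of 300 and 11 without probe sets ending in _x_at or _s_at. Old minus young adult (4 members, 5.91% of all) gave 7 without a filter (5.36%), 7 with the beta-actin ratio (10.8%), 7 with the poly-A control set as a block (8.51%), 2 within the arrays with poly-A control RNA (7.01%) and 1 without _x_at or _s_at (5.96%). AD-like minus old (4, 4.84%) gave 8 without a filter (5.74%), 1 at a signal of 300 (4.82%), 7 with sex (11%), 2 in the t-test (5.08%) and 2 without _x_at or _s_at (4.92%). AD-like minus young adult (2, 4.34%) gave 6 without a filter (4.93%), 0 at a signal of 300 (4.02%), 4 in females (8.35%), 1 in the t-test (3.58%) and 1 without _x_at or _s_at (4.42%). The F test (5, 5.07%) gave 2 at a signal of 300 (5.59%), 8 in females (8.66%) and 3 within the arrays with poly-A control RNA (5.72%). Calls at an adjusted p under 0.05 for AD-like minus old went from 0 to 1, ENO3, with 1 added to the signal (-2.73) and with sex in the model (-2.05). Over all features tested, such calls rose as well, from 1 to 2 with 1 added to the signal and to 9 with sex. ENO3 was kept by the filter through 3 old arrays alone, so its call is a description only. The counts of AD-like minus old and of the F test made after this filter are likewise a description only. With the replicate block (sex and number of the label), AD-like minus old gave 7 (15.5%), AD-like minus young adult 6 (12.7%) and GAPDH old minus young adult -0.052; same-numbered animals correlated from -0.27 to 0.47, with 7 of 10 over 0.1, so the numbers were not taken to pair them. GAPDH old minus young adult was -0.21 under quantile normalisation and -0.12 to 0.27 with 1 animal left out (below 0 without young adult M2 or old F2, -0.01), and AD-like minus young adult -1.78 to 0.059 (above 0 without AD-like F2). ENO2 minus ENO1 was -1.86 with 1 added to the signal. With 1 young adult or old animal left out, old minus young adult gave 2 (without young adult F4, 4.07%) to 7 (without young adult F2, 8.59%). AD-like minus old gave 4 (without young adult F4, 4.83%) to 5 (without old M1, 6.03%). AD-like minus young adult gave 2 (without young adult F4, 3.89%) to 3 (without young adult F3, 4.83%). The F test gave 4 (without young adult F4, 4.03%) to 6 (without young adult F2, 6.56%). Leaving out an AD-like animal leaves 1 in its group, so no count is given there. In females with poly-A control RNA, an alternative chosen after seeing the data, the members' median for AD-like minus old was -0.02. AD-like minus old ranged from 0.27 to 2.18 for LDHA minus LDHB, from -1.41 to 0.088 for ENO3 minus ENO2, from -0.96 to 0.074 for PFKM minus PFKP, from -0.59 to 0.13 for PFKL minus PFKP and from -1.51 to 0.39 for MPC2 minus MPC1, with the ends set by the AD-like animals. Old minus young adult ranged from -0.84 to -0.17 for PFKM minus PFKP and from -1.08 to -0.40 for PFKL minus PFKP. The causes were not tested. Signals under the array median, as for ENO3 and PKM in both AD-like animals, limit what can be said of the size of a difference.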
